A study of Mus musculus with 8 samples.

Results

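The genes long used to recognise the macrophages of the brain's borders, here Pf4, Lyve1, Mrc1, Cd163, Cbr2, F13a1, Folr2, Cd209f and Stab1, were followed across leukocytes of the mouse brain, pia and dura with and without stroke. They are known marker genes, 9 of the 30406 genes that all libraries share, and were chosen with earlier results of these data known. The tests of these genes below are therefore not tests of a list drawn up without sight of the data. The genes' unique molecular identifiers (UMIs, each a captured RNA molecule) were summed per library and per cluster of the study's own cell annotation. The sums are given as counts per 1000000 UMIs of the same cells (CPM). Pf4 and Lyve1 were also among the transcripts from which the study named its clusters of central nervous system-associated macrophages (CAM), so a difference between clusters is given below only as a description.

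The cells were sorted CD45+ leukocytes that an antibody injected into the blood shortly before perfusion had not reached (CD45iv-CD45+), from adult male C57BL/6 wild-type mice. There was 1 library each of control brain parenchyma, control pia and control dura. After transient middle cerebral artery occlusion (MCAO) there were 2 libraries of brain parenchyma at 24 h (replicates 1 and 2), 1 of pia at 24 h, 1 of dura at 24 h and 1 of brain parenchyma at 72 h. The number of mice behind each library is not given in the sources used here, though the study states that repeated experiments were pooled for each compartment. The control animals are called healthy, untreated or sham-operated in different places and are called controls here. The choroid plexus had been removed, and the brain alone passed a Percoll gradient, so tissue and preparation cannot be told apart. Of the control pia library, the title names brain parenchyma and every other label names pia.

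Border-associated macrophages sit in the meninges, around vessels and in the choroid plexus, where they take up proteins, lipids and debris from the fluid around them. They differ from microglia, the macrophages of the parenchyma, by scavenger and lectin receptors. In the list, Lyve1 is a receptor for the matrix sugar hyaluronan, Mrc1 the mannose receptor CD206, Cd163 the scavenger receptor for haemoglobin bound to haptoglobin, Stab1 a large scavenger receptor, Cd209f a C-type lectin of the DC-SIGN family and Folr2 a folate receptor. Pf4 encodes a chemokine best known from platelets, F13a1 the A subunit of coagulation factor XIII, and Cbr2 a carbonyl reductase.

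In GRCm38 the genes lie at chr5:90772435-90773383 (Pf4), chr7:110850607-110863239 (Lyve1), chr2:14229392-14332057 (Mrc1), chr6:124304656-124330527 (Cd163), chr11:120729489-120732114 (Cbr2), chr13:36867178-37050244 (F13a1), chr7:101839988-101857194 (Folr2), chr8:4102787-4105835 (Cd209f) and chr14:31139013-31168641 (Stab1). RefSeq promoters (GRCm38.p6, 250 bases before to 50 after the start) were found for 8 of 9 genes, and Lyve1 had no entry. Searched on both strands, the letters GAGGAA (the core of PU.1 sites) were in promoters of 5 of the 8 genes and in 28.28% of 32851 promoters, TGCTGA (part of the sites of MAF factors) in 3 and in 19.48%, and TGANTCA (AP-1) in 2 and in 7.808%. Shown are 4 upstream stretches, for genes on which the results below turn. They are the chemokine gene by which the study named its clusters (Pf4) and the gene with 3 upstream matches to GAGGAA (Mrc1). The others are a gene also high in a cluster that the study named as granulocytes (F13a1) and the gene whose brain levels overlapped with the meninges (Stab1, with both motifs). Capitals mark GAGGAA or its reverse TTCCTC, and TGCTGA.
Pf4, chr5:90772375-90772434, plus strand: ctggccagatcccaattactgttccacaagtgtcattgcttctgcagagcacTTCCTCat
Mrc1, chr2:14229224-14229389, plus strand: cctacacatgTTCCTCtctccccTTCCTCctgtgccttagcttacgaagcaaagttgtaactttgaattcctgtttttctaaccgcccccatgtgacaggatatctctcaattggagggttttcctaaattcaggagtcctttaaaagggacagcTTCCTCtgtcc
F13a1, chr13:37050245-37050324, minus strand: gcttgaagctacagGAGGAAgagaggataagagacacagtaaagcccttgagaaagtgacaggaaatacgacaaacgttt
Stab1, chr14:31168642-31168701, minus strand: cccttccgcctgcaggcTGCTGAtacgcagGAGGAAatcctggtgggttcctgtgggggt
A match is a string of letters in this window, and says nothing of binding.

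The libraries held 6591898 to 20754181 UMIs, and 32457 of 36854 cell barcodes carried an annotation. The study's 4 clusters CAM_1, CAM_2, Macro_1 and Macro_2, the macrophage clusters below, held 9202 cells, and 10246 with the stroke-associated myeloid cells (SAMC). Replicate 2 of the brain at 24 h and the brain library at 72 h carried another set of cell barcodes and a shorter gene list than the other 6. The pair of them shared 13 barcodes, pairs of the other 6 libraries shared 12 to 43, and mixed pairs 0 to 2. The fits of the 4 clusters summed are therefore also given without replicate 2.

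The chemokine gene Pf4 was higher in every library of the meninges than in any brain library. In the macrophage clusters summed, it stood at 51.4 CPM in control brain, at 5.97 and 130.4 CPM in the brain replicates at 24 h and at 189.7 CPM in the brain at 72 h, while pia held 1739 CPM (control) and 1471 CPM (24 h) and dura 2099 CPM (control) and 1426 CPM (24 h). The brain libraries ranged widely among themselves, with replicate 1 lowest and the 72 h library highest. In sums of this kind, fewer cells of a type and less RNA per cell cannot be told apart. F13a1 was likewise higher in each library of the meninges than in any brain library, with 28.7 CPM in control brain, 9.64 and 176.1 CPM at 24 h, 152.4 CPM at 72 h, 866.5 and 1429 CPM in control and 24 h pia, and 617.0 and 633.3 CPM in control and 24 h dura. For both genes the replicates of brain at 24 h lay on either side of the control brain.

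Among the receptor genes, Lyve1 was without a UMI in control brain and in replicate 1 at 24 h, which allows up to 4.54 and 1.38 CPM. It reached 7.80 CPM (7 UMIs) in replicate 2 and 0.202 CPM (1 UMI) in the brain at 72 h. In pia it stood at 224.2 CPM in the control and 260.7 CPM at 24 h, and in dura at 67.0 and 60.6 CPM. Cd209f had 0 UMIs in control brain and in replicate 1, and 1 UMI each in replicate 2 and at 72 h, against 240.8 and 213.2 CPM in pia and 286.3 and 174.0 CPM in dura. Both genes thus had 7 UMIs or fewer in each brain library, and 146 or more in each library of pia and dura.

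Cd163 had 2, 0, 19 and 9 UMIs in control brain, replicates 1 and 2 and the brain at 72 h, the highest of these being 21.2 CPM, and stood at 234.6 and 256.5 CPM in control and 24 h pia and 191.8 and 189.1 CPM in dura. Folr2 stood between 2.76 and 12.9 CPM in the 4 brain libraries, at 246.6 and 235.8 CPM in pia and at 163.8 and 144.6 CPM in dura. Its 4 brain libraries held 6 to 64 UMIs, all far below the meninges. Mrc1 ranged more widely in brain, with 28.7 CPM in the control, 4.13 and 196.1 CPM at 24 h and 32.1 CPM at 72 h, against 533.6 and 444.5 CPM in pia and 452.3 and 309.5 CPM in dura.

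The reductase gene Cbr2 stood at 1.51 CPM in control brain, 0.919 and 21.2 CPM at 24 h and 34.4 CPM at 72 h, and at 259.2 and 277.9 CPM in pia and 320.2 and 255.1 CPM in dura. Stab1 was the exception. Its brain libraries, with 78.6 CPM in the control, 101.0 and 269.7 CPM at 24 h and 235.2 CPM at 72 h, overlapped with pia (238.4 and 140.0 CPM) and dura (198.2 and 152.4 CPM). The overlap came from replicate 2 and the 72 h library, which carry another barcode set. Stab1 in control brain and replicate 1 lay below every library of pia and dura. The plot of levels by library shows the gap between tissues for the other 8 genes.

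**Figure D1:**
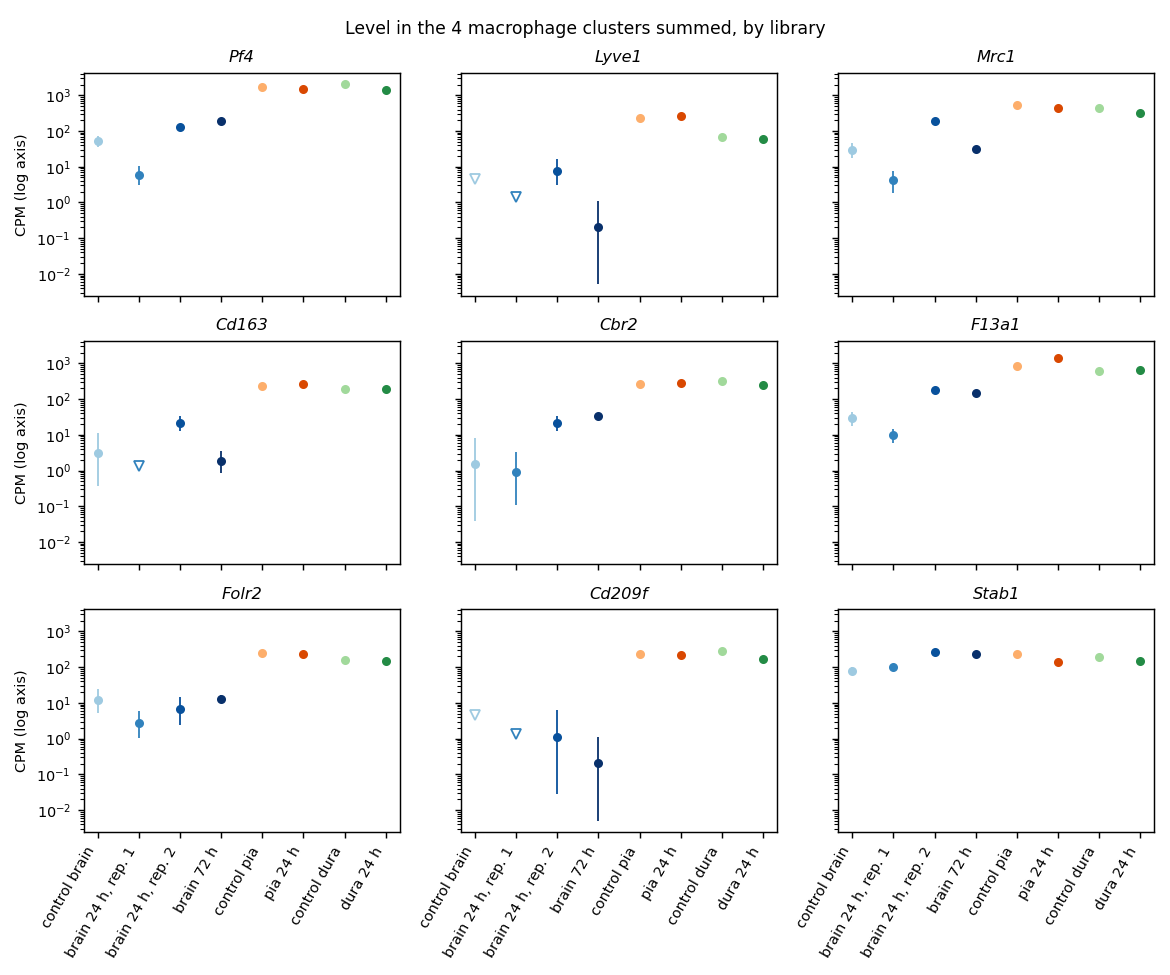
Level of each gene in the macrophage clusters CAM_1, CAM_2, Macro_1 and Macro_2 summed, by library, as CPM on a log axis, 1 panel per gene. Points are libraries, bars are exact Poisson 95% intervals of the count, and open triangles mark the level that a count of 0 allows. Pia and dura libraries lie above all brain libraries for 8 genes, while Stab1 overlaps, with 269.7 CPM in replicate 2 of the brain at 24 h against 238.4 CPM in control pia.

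Whether cells under the macrophage labels differed in these genes between pia or dura and the parenchyma was tested with edgeR's quasi-likelihood test. It was run on the sums of the 4 clusters in the 7 control and 24 h libraries. Tissue and time were the terms, and the Benjamini-Hochberg adjustment ran over 9486 genes. The p-values measure the spread of these libraries around the fit, which may be technical. Only the brain at 24 h had more than 1 library. That spread thus holds differences in response between tissues, and the difference between brain replicates 1 and 2, which carry different barcode sets. A gene is said to be called where the adjusted p was under 0.05 and the fold at least 2. Both comparisons share the 3 brain libraries, so they are not independent. Cd209f was called in pia against brain (log2 fold change 9.68 ± 0.75 SE, edgeR adjusted p = 0.0328; 227.0 ± 19.6 CPM, SD, n = 2, against 0.372 ± 0.643, n = 3) and in dura against brain (9.68 ± 0.76, adjusted p = 0.0188). Folr2 was called in both as well (5.62 ± 0.53, adjusted p = 0.0328, and 4.98 ± 0.52, adjusted p = 0.0216). Thus 2 of 9 members were called higher in each comparison, where 0.569% of all genes tested were called higher in pia and 1.03% in dura. The members' median log2 fold change was 5.62 in pia and 5.27 in dura, beside −0.12 and −0.15 over all genes.

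Another 6 members had large fitted differences that missed the threshold. Lyve1 was at 7.30 ± 1.11 in pia against brain (edgeR adjusted p = 0.0503) and at 5.40 ± 1.10 in dura (adjusted p = 0.0694). Cbr2, Cd163, Pf4, F13a1 and Mrc1 lay between 3.30 and 5.76 in pia and between 2.96 and 5.89 in dura, on the log2 scale. Stab1 stood at 0.82 ± 0.61 and 0.72 ± 0.60, with adjusted p of 0.573 and 0.545. The CPM values of 8 of 9 members did not overlap between brain and pia, nor between brain and dura, where 8.08% and 10.4% of all genes lay apart in that direction.

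These calls turned on replicate 2 of the brain at 24 h. Without it all 9 members were called higher in pia and in dura, where the same fit called 11.9% and 13.9% of all genes higher. Stab1 was then at 1.38 ± 0.27 in pia (edgeR adjusted p = 0.00838) and 1.31 ± 0.27 in dura (adjusted p = 0.00854). With the remaining brain libraries pooled, Lyve1 was at least 229.2-fold higher in pia and at least 60.01-fold higher in dura than in brain, and Cd209f at least 215.0-fold and 211.9-fold, each set against the 3 counts that a pooled count of 0 allows. With replicate 2 and its 7 UMIs of Lyve1 included, the pooled ratio for Lyve1 was 129.3 in pia (95% counting interval 62.6 to 321.9) and 33.9 in dura (16.2 to 84.9). The pooled ratio for Pf4 was 36.6 in pia (31.4 to 43.0) and 39.3 in dura (33.7 to 46.2) with replicate 2, and 97.1 and 104.2 without it. In Macro_2 alone, with replicate 2, Pf4 was 5.98 times brain in pia (4.74 to 7.66) and 10.3 times in dura (8.20 to 13.2). Mrc1 was there at 1.43 and 1.70 times brain, F13a1 at 3.02 and 2.09, and Stab1 at 1.07 and 1.32. In the 4 clusters summed, Mrc1 was at 8.97 and 6.83 times brain and F13a1 at 21.6 and 11.8. The fit of Macro_2 alone called 0 members higher in pia and 5 in dura, where 0 and 33 of 8245 genes were. In the 4 clusters summed, leaving out any library other than replicate 2 left 0 genes called in pia against brain and at most 10 in dura. In CAM_1 and CAM_2 alone, with all 7 libraries, 4 members were called higher in pia (Cd209f, Folr2, Lyve1 and Cbr2) and 5 in dura (the same 4 and Pf4), where 2.13% and 3.14% of all genes were called higher. DESeq2 called 8 members in pia and 5 in dura in the 4 clusters, where it called 3.34% and 4.97% of all genes higher. Reads of Cd209f may be shared with its close relatives in the same gene family, so its count is uncertain to that extent.

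**Figure D2:**
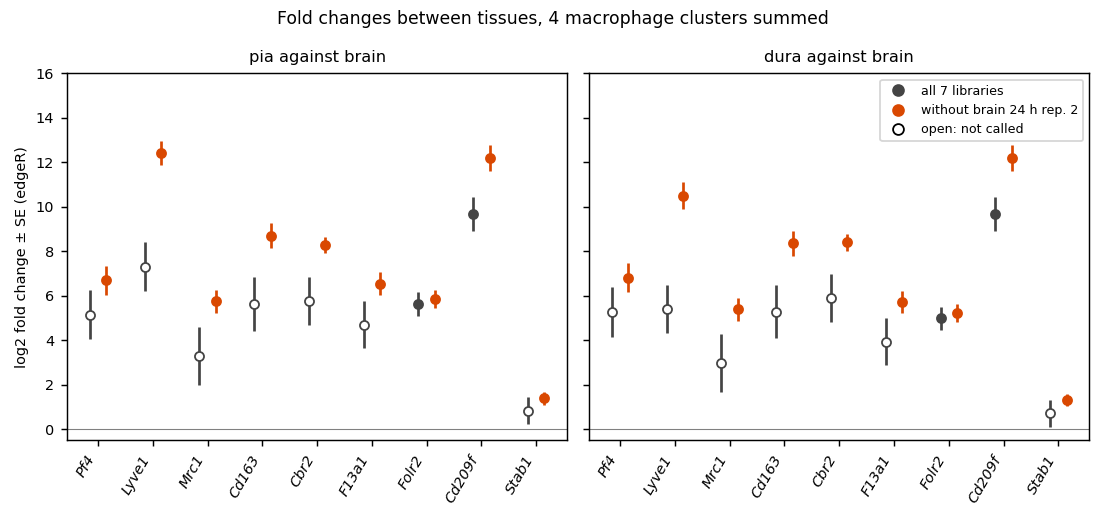
Fitted log2 fold change of each gene in pia against brain and in dura against brain, macrophage clusters summed, with all 7 control and 24 h libraries and without replicate 2 of the brain at 24 h. Bars are standard errors of the edgeR fit, filled points are called genes and open points are not; 2 of 9 genes are filled with all libraries and 9 of 9 without replicate 2.

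The brain cells that carry the CAM labels also carried microglia transcripts, in control brain near the level of the microglia cluster Micro_2. In the macrophage clusters, the summed level of 11 microglia genes was 30550 CPM in control brain, 14610 and 3689 CPM in brain at 24 h and 1901 CPM at 72 h, against 1969 to 3100 CPM in pia and 1892 to 1986 CPM in dura. None of the 11 was at 0 in the brain or pia libraries, and Sall1 was at 0 in both dura libraries. Tmem119, a microglia surface gene, stood in CAM_1 at 3085 CPM in control brain, 1344 and 291.3 CPM at 24 h and 194.3 CPM at 72 h. In CAM_1 of pia and dura it was at 25.9 to 51.3 CPM. In Micro_2 of the same brain libraries it stood at 3434, 3008, 1176 and 925.0 CPM. In Macro_2 of these it stood at 419.9, 75.8, 19.8 and 56.4 CPM, against 49.9 to 132.3 CPM in Macro_2 of pia and dura. P2ry12, another microglia gene, stood at 5033 CPM in CAM_1 and 5643 CPM in Micro_2 of control brain. In the same fit, 2 of the 11 microglia genes were called lower in pia (Sall1 at −5.90 ± 0.70 and Sparc at −5.64 ± 0.80) and 3 in dura (Sall1 at −8.95 ± 1.02, Sparc at −5.34 ± 0.79 and Siglech at −3.11 ± 0.49), with edgeR adjusted p of 0.0329 to 0.0426, where 0.127% and 0.306% of all genes were called lower. Without replicate 2, 10 of 11 were called lower in pia and 11 of 11 in dura, where 8.7% and 11.1% of all genes were. In the cells with the label CAM in control brain and replicate 1, Lyve1, Cd163 and Cd209f were at 0 in both CAM clusters. The other members were present there, at low counts except for Stab1. Pooled over these cells they had 22 (Pf4), 14 (Folr2), 10 (Mrc1), 5 (F13a1), 2 (Cbr2) and 244 UMIs (Stab1). The part of the microglia transcripts in the tissue difference was not tested.

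Marker genes of other cell types were also summed in the macrophage clusters. The monocyte sums, given below with the 72 h library, were highest in replicate 2 at 24 h and in the brain at 72 h. The platelet gene Ppbp was at 0 in the macrophage clusters of control brain and both 24 h brain libraries and at 3.30 to 5.05 CPM in pia and dura. Summed platelet genes lay between 2.83 and 33.3 CPM, the highest in control brain, summed endothelial genes between 2.49 and 30.1 CPM, the highest in replicate 2 at 24 h, and summed dendritic cell genes between 13.8 and 159.2 CPM, the highest in control dura. Of the 1 platelet, 1 endothelial, 4 dendritic and 6 monocyte genes abundant enough to test, 0 were called in either comparison. Without replicate 2, 3 of the 4 dendritic genes (Ccr7, Cd209a and Flt3) were called higher in both comparisons, the monocyte gene Ccr2 in both and Ly6c2 in dura, the platelet gene Gp9 lower in both and the endothelial gene Pecam1 lower in pia. The 8 genes of the response to tissue dissociation summed to 36400 CPM in control brain and 7076 to 18690 CPM elsewhere, and 1 of them, the heat shock gene Hspa1a, was called higher in pia than in brain (3.03 ± 0.38, edgeR adjusted p = 0.0368). Without replicate 2, 2 of the 8 were called higher in each comparison (Hspa1a and Hspa1b), and 4 lower in pia and 5 in dura. The part of these cell types and of dissociation in the tissue difference was not tested.

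Of 28 further border macrophage genes, 7 were called higher in pia than in brain and 11 in dura, and 0 lower. Over all genes 0.569% and 1.03% were called higher. Of the 28, 27 had a positive fold change in each, with medians of 3.38 and 3.53. The list was chosen with earlier results of these data known. The lectin genes Cd209b (9.91 ± 0.80) and Cd209g (9.81 ± 0.79) and the ficolin gene Fcna (8.40 ± 0.92) led in pia, each with an edgeR adjusted p of 0.0339. Cd209g (10.40 ± 0.78, adjusted p = 0.0230), Cd209b (9.94 ± 0.81, adjusted p = 0.0243) and the chemokine gene Ccl8 (9.58 ± 1.07, adjusted p = 0.0230) led in dura. Without replicate 2, 24 of the 28 were called higher in pia and 23 in dura, where 11.9% and 13.9% of all genes were. Slc40a1, which encodes the iron exporter ferroportin, was then called lower in pia (−1.04 ± 0.21, edgeR adjusted p = 0.00963). Of 5 genes marking MHC class II-high border macrophages, 0 were called in either, and all 5 were called higher in both without replicate 2, with medians of 3.308 and 3.796. Their summed level was 50750 to 108100 CPM in the meninges and 5951 to 19740 CPM in brain.

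Within the meninges the genes graded from CAM_1 and CAM_2 to Macro_2. Pf4 stood at 3031 CPM in CAM_1, 3342 in CAM_2 and 817.3 in Macro_2 of control pia, and at 4077, 3143 and 1428 CPM in control dura. Across the 4 libraries of pia and dura, CAM_1 exceeded Macro_2 by 2.86 to 5.60 times for Pf4, by 5.19 to 37.9 times for Lyve1, by 4.25 to 21.0 times for Folr2 and by 4.78 to 34.6 times for Cd209f. For F13a1, whose upstream stretch is printed above, the same ratio was 2.28 to 2.92.

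The CAM clusters differed by gene. F13a1 was lower in CAM_1 than in CAM_2 in all 4 libraries, with ratios of 0.627 to 0.740, and Cbr2 likewise, with ratios of 0.616 to 0.846. Cd209f went the other way, at 581.6 CPM in CAM_1 and 460.3 in CAM_2 of control pia and 411.6 and 173.8 CPM in pia at 24 h. Summed over the 9 genes, CAM_2 of control pia held 9129 CPM and CAM_1 held 8311 CPM, while in control dura the values were 8134 and 8432 CPM. Lymphoid cells (B, T, natural killer, gamma-delta T and type 2 innate lymphoid clusters), which should lack these genes, gave 133.9 to 327.6 CPM in the meninges and 10.1 to 39.0 CPM in brain for the same sum.

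In the pia the genes were also high under the labels Micro_2 and SAMC. Micro_2, named by the study as microglia, held 45 cells in control pia and 61 in pia at 24 h, in which the 9 genes summed to 5226 and 4027 CPM, with Pf4 at 1426 and 807.4 CPM and F13a1 at 1050 and 1329 CPM. The microglia genes there summed to 4954 and 3710 CPM, against 13600 to 31790 CPM in Micro_2 of the brain libraries, where the 9 genes summed to 60.3 to 475.1 CPM. SAMC of pia at 24 h (95 cells) held 4187 CPM of the 9 genes, with Pf4 at 1772 and F13a1 at 1173 CPM. Granulo_1 held 3543 CPM in control pia (55 cells) and 696.1 CPM in pia at 24 h. In dura the microglia clusters summed held 4818 CPM in the control (51 cells) and 2074 CPM at 24 h (76 cells). Micro_1 and Micro_3 of pia were lower, at 292.7 to 579.6 CPM.

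The share of single cells with UMIs of at least 3 of the 9 genes, after each cell was thinned to 1000 UMIs, was set beside the sums. In CAM_1 it was 82.3% of 552 cells in control pia (exact binomial 95% interval 78.8% to 85.3%), 70.0% of 787 in pia at 24 h, 80.4% of 189 in control dura and 57.4% of 296 in dura at 24 h. In the brain it was 1 of 214 CAM_1 cells in the control (0.467%), 0 of 631 in replicate 1 at 24 h, which allows a share of up to 0.475%, 4 of 77 in replicate 2 (5.20%) and 10 of 172 at 72 h (5.81%). Lymphoid cells gave 0% in the 4 brain libraries, from 53 and 55 cells in the control and in replicate 1, and 0% to 1.51% in the meninges. The CAM_1 shares of control brain and replicate 1 were not distinguishable from this background. The 9 genes summed to 118.0 and 111.2 CPM there, against 11.4 and 10.1 CPM in lymphoid cells of the same libraries. In the microglia clusters of these libraries they summed to 68.8 and 109.5 CPM. Most of the UMIs were of Stab1, with 244 in CAM_1 and CAM_2 of both libraries pooled, against 22 or fewer for each other member. Thinning left out 88 of the 165 CAM_1 cells of replicate 2, and 7 to 72 in each other library. Without thinning the shares were 92.9%, 83.8%, 92.2% and 81.4% in the meninges, and 0.453%, 0%, 3.64% and 13.2% in the brain, in the same order.

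In Macro_2 the thinned share was 15.5% in control pia and 9.75% at 24 h, and 26.2% in control dura and 13.01% at 24 h. In CAM_2 it was 79.0% and 68.4% in pia, from the 95 of 293 and 171 of 294 cells that thinning kept. In CAM_2 of dura it was 69.2% and 57.3%, from 52 of 83 and 110 of 131 cells. Thus within each of these clusters the 24 h library of pia and of dura was below its control. Each side of such a pair is 1 library, so these differences have no replicate check.

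**Figure D3:**
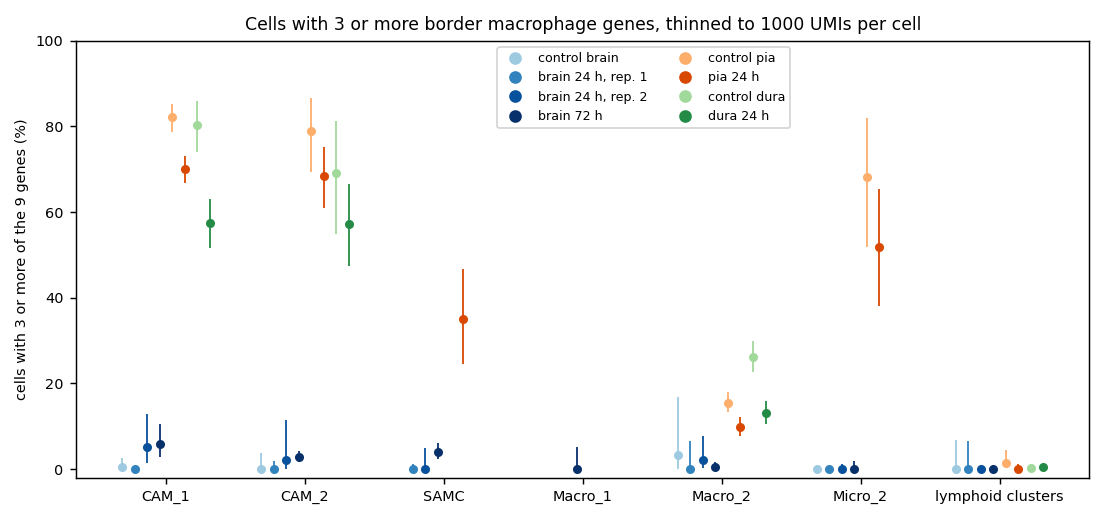
Percent of cells with UMIs of 3 or more of the 9 genes after thinning to 1000 UMIs per cell, by cluster and library. Bars are exact binomial 95% intervals and cover counting error only. CAM_1 lies between 57.4% and 82.3% in the meninges and at 5.81% or less in the brain, and lymphoid cells at 1.51% or less.

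The change at 24 h after MCAO was tested in the same fit. Of 9486 genes, edgeR called 0 (459 at an unadjusted p under 0.05), and DESeq2 called 16. No member was called, with fitted log2 fold changes from −0.55 ± 0.41 for Folr2 to 0.73 ± 0.89 for F13a1 and adjusted p of 0.945 or more, 5 of them above 0. Without replicate 2 of the brain the values of all 9 members were below 0, with a median of −0.34, and still none was called, where 1.44% of all genes were. The test of a difference in response between tissues, with 1 residual degree of freedom, called 0 of 10397 genes (42 at an unadjusted p under 0.05), as did DESeq2 (33), and the smallest unadjusted p among the members was 0.413, for Lyve1. The brain replicates lay on opposite sides of control brain for some members. Pf4 in replicate 1 was 0.116 times control brain (0.0563 to 0.226) and in replicate 2 was 2.54 times control brain (1.72 to 3.83), and Mrc1 was at 0.144 (0.0573 to 0.334) and 6.83 times (4.24 to 11.6). Folr2 was below control brain in both, at 0.228 (0.0652 to 0.749) and 0.553 (0.158 to 1.82), and Stab1 above it in both, at 1.29 (0.946 to 1.77) and 3.43 (2.53 to 4.72). These ratios are of the 4 clusters summed, and replicate 2 differed by cluster. For members with UMIs in control brain, its ratios were 0.312 to 0.887 in Macro_2. They were 2.65 to 20.6 in CAM_1 and 0.231 to 27.8 in CAM_2.

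In pia and dura, level ratios of the 24 h library to its control, with counting intervals only, were mostly below 1 within clusters. In CAM_1, Pf4 stood at 0.751 times control in pia (0.720 to 0.784) and 0.590 times in dura (0.553 to 0.629), Mrc1 at 0.719 and 0.641, Cd209f at 0.708 and 0.634, and Stab1 at 0.435 and 0.553. In CAM_2, Cd209f stood at 0.378 times control in pia and 0.382 in dura, and Mrc1 at 0.638 and 0.489. In Macro_2, Folr2 was at 0.306 and 0.466 times control and Lyve1 at 0.371 and 0.313. Lower levels in both tissues were seen for 7 of 9 members in CAM_1, where 30.3% of all genes were lower in both, for 6 in CAM_2 (23.7%) and for 8 in Macro_2 (28.7%).

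F13a1 went against this in pia. Its ratio there was 1.36 in CAM_1 (1.29 to 1.44), 1.33 in CAM_2 (1.20 to 1.47) and 1.48 in Macro_2 (1.37 to 1.61), while in dura it was 0.976 (0.868 to 1.10), 0.826 (0.697 to 0.982) and 0.786 (0.700 to 0.883). No other member had an interval wholly above 1 in these 3 clusters of pia or dura. Cluster sizes moved too. Macro_2 went from 1044 to 832 cells and CAM_1 from 574 to 859 cells in pia, and over the 4 clusters summed the pia ratios were 0.846 for Pf4, 1.16 for Lyve1 and 1.65 for F13a1.

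A fit of the 4 pia and dura libraries alone, added after the data were seen and with 1 residual degree of freedom, called no member at 24 h in the 4 clusters summed, where it called 1.14% of genes higher and 1.31% lower. Stab1 came nearest, at −0.65 ± 0.15 with an edgeR adjusted p of 0.0308, short of a 2-fold change. In CAM_1 and CAM_2 alone, Stab1 was called lower at 24 h (−1.03 ± 0.16, edgeR adjusted p = 0.00927), beside 1.52% of all genes. Cd209f (−0.74 ± 0.14, adjusted p = 0.0162), Mrc1 (−0.65 ± 0.13, adjusted p = 0.0240) and Pf4 (−0.63 ± 0.13, adjusted p = 0.0268) passed the adjusted p there with changes under 2-fold. Over all alternatives the adjusted p of Stab1 at 24 h ran from 0.00927 to 1.0.

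**Figure D4:**
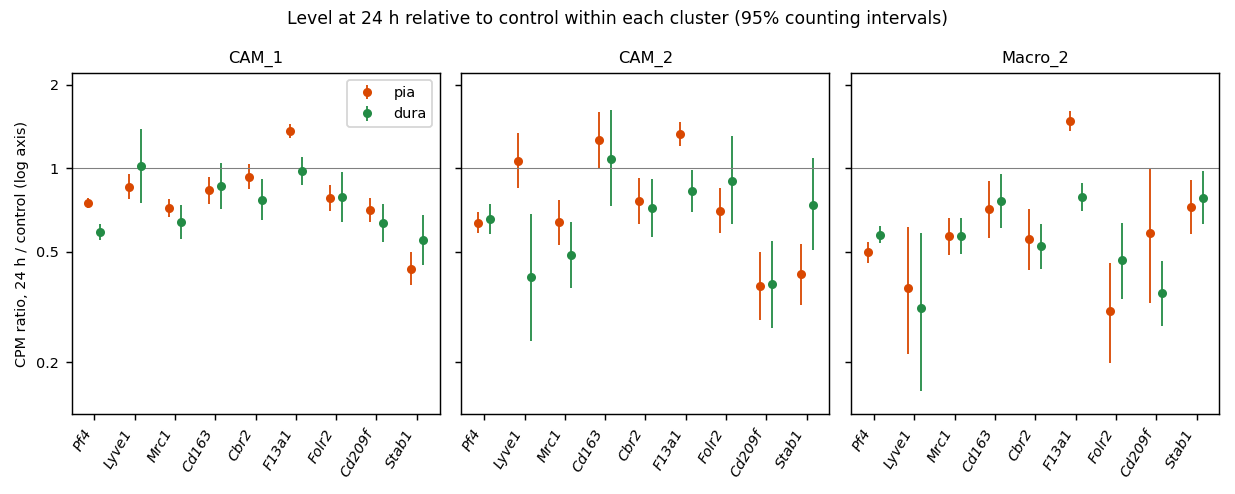
Level at 24 h after MCAO divided by the level in the control library of the same tissue, for each gene in CAM_1, CAM_2 and Macro_2 of pia and of dura, on a log axis. Bars are exact 95% counting intervals and the grey line marks a ratio of 1. Most points lie below the line, and the F13a1 points of pia lie above it, at 1.36, 1.33 and 1.48.

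Over the 4 clusters summed, pia and dura differed from each other most in Lyve1. Its level in pia was 3.35 times that in dura in the controls (2.81 to 4.01) and 4.30 times at 24 h (3.65 to 5.10), and within CAM_1 3.58 times and 3.02 times. The fit of all 7 libraries gave a log2 fold change of 1.90 ± 0.92 that was not called (edgeR adjusted p = 1.0). That fit called 0 of 9486 genes (169 at an unadjusted p under 0.05; DESeq2 called 14). Without replicate 2 of the brain at 24 h Lyve1 was called (1.90 ± 0.20, adjusted p = 0.0122), beside 0.329% of genes called higher. In the 4 pia and dura libraries alone it was called as well (1.89 ± 0.15, adjusted p = 5.04e-05), beside 1.3% of genes. The adjusted p ran from 5.04e-05 to 1.0 over the alternatives. F13a1 was at 1.40 times dura in the controls and 2.26 times at 24 h, and Folr2 at 1.51 and 1.63 times. In the controls the summed levels of Pf4, Cd209f and Cbr2 were lower in pia than in dura, at 0.828, 0.841 and 0.810 times. Within CAM_2 no member exceeded 1.95 times dura in the controls, while at 24 h the highest ratio was 4.28, for Lyve1. Lyve1 in Macro_2, pooled over control and 24 h, stood at 23.8 CPM in pia and 18.3 CPM in dura. In Macro_2 alone some members were lower in pia at both times, with 1 library on each side. The share of all genes that were so was not counted. Such members included Cd209f, with 20.4 and 11.9 CPM in control and 24 h pia against 138.5 and 49.2 CPM in dura. Pf4 was another, with 817.3 and 406.8 CPM against 1428 and 822.6 CPM. The fit of Macro_2 alone called 0 members in pia against dura, where 11 of 8245 genes were called lower and 0 higher.

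At 72 h after MCAO the SAMC of the brain held some members without the others. The 72 h library is 1 sample and was not part of the tests above. In SAMC of that library (485 cells) Pf4 stood at 378.9 CPM, F13a1 at 321.6, Stab1 at 382.4, Cbr2 at 89.0, Folr2 at 34.3 and Mrc1 at 13.5 CPM, while Lyve1, Cd163 and Cd209f had 0 UMIs. In CAM_1 (212 cells) Pf4 stood at 486.9 and F13a1 at 229.9 CPM, and Cd209f was the only member with 0 UMIs. In SAMC of replicate 1 at 24 h (301 cells) 6 of the 9 genes had 0 UMIs and Pf4 was at 9.74 CPM, and in SAMC of replicate 2 (120 cells) Pf4 was at 49.3 CPM. The monocyte genes in the macrophage clusters summed to 1255 CPM at 72 h, 105.8 CPM in control brain, 124.0 and 970.6 CPM in brain at 24 h and 169.8 to 452.3 CPM in the meninges. Their part in the levels at 72 h was not tested.

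In the brain, Stab1 and F13a1 were found widely outside the macrophage clusters, and they were not the only members to be so. At 72 h these clusters held 44.9% of the Pf4, 40.5% of the Cbr2 and 38.8% of the Folr2 UMIs. SAMC held 41.7%, 48.8% and 47.9% of them. Of the Mrc1 and Cd163 UMIs at 72 h the macrophage clusters held 55.8% and 64.3%. In replicate 2 at 24 h, Granulo_1 held 36.5% of the Pf4 UMIs. In the microglia clusters of the brain Stab1 stood at 66.0 CPM in the control, 99.1 and 483.1 CPM at 24 h and 255.1 CPM at 72 h, beside 78.6, 101.0, 269.7 and 235.2 CPM in the macrophage clusters of the same libraries. Both levels were highest in replicate 2 and next highest at 72 h. The microglia clusters held 87.8% of the annotated Stab1 UMIs of control brain, 60.02% and 70.1% in the brain replicates at 24 h and 13.2% at 72 h, when the macrophage clusters held 36.6% and SAMC 27.7%. F13a1 was high in Granulo_1, which the study named as granulocytes, with 389.1 to 1067 CPM in the 7 libraries with enough cells. What cells Granulo_1 holds was not tested here. In Granulo_2, the other cluster with that name, all 9 genes summed to 17.6 to 168.3 CPM, against 596.0 to 3543 CPM in Granulo_1. Granulo_1 held 82.2% and 79.4% of the F13a1 UMIs of brain at 24 h and 45.2% at 72 h. In control brain it held 22 of 41 F13a1 UMIs (53.7%), from only 5 cells. In pia and dura the macrophage clusters held 80.2% to 90.6% of the Stab1 UMIs and 75.4% to 92.1% of the F13a1 UMIs. In the microglia clusters of brain F13a1 was at 0 to 9.15 CPM, and Pf4 at 0.819 to 7.93 CPM.

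**Figure D5:**
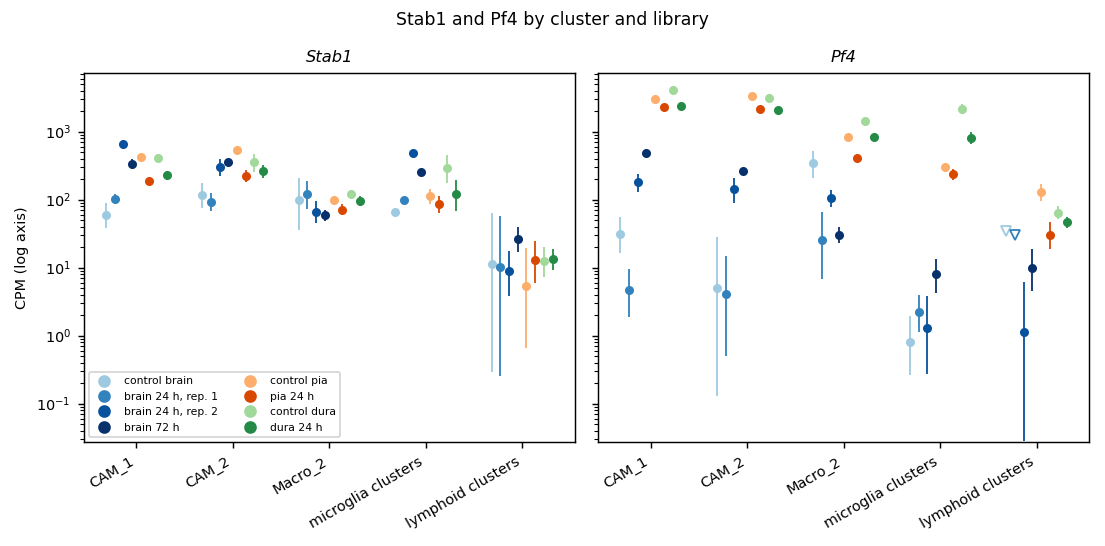
Level of Stab1 and of Pf4 by cluster and library, as CPM on a log axis. Bars are exact Poisson 95% intervals and open triangles mark the level that a count of 0 allows. Stab1 is at 66.0 to 483.1 CPM in brain microglia clusters, where Pf4 is at 0.819 to 7.93 CPM.

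How alike the 9 genes were was described over 29 sums of a library and a macrophage or SAMC cluster, which share libraries and depth. The Pearson correlation of a gene's log2 CPM with the mean of the other 8 was 0.974 for Cbr2, 0.952 for Pf4, 0.9502 for Cd163, 0.929 for Folr2, 0.925 for Lyve1, 0.922 for Cd209f, 0.890 for Mrc1 and 0.887 for F13a1, but 0.387 for Stab1. Within the 13 sums of pia and dura Stab1 reached 0.848 and F13a1 was lowest, at 0.794. The genes with a mean of at least 50 CPM were 2846, with the members not left out of that count. Of the non-members, the nearest to the members' mean was Igfbp4 (0.921), which encodes a binding protein of insulin-like growth factors. Next came Gpx3 (0.912), a secreted glutathione peroxidase, Ccl8 (0.911), a chemokine, Vcam1 (0.901), an adhesion molecule, and mt-Atp6 (0.882), a mitochondrial ATP synthase subunit. Igfbp4 and Ccl8 were also in the list of 28 further border macrophage genes. Vcam1 stood at 336.0 and 201.0 CPM in pia, 511.0 and 435.4 CPM in dura and 1.42 to 22.7 CPM in brain.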

How the data were processed

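UMI counts per gene and cell were deposited by the authors for 8 libraries, made per the labels and the study's methods with Cell Ranger 6.0 on mm10 from droplet 3' libraries of both kit versions, with the annotation of 21 clusters. Per the methods, the authors had removed low-quality cells and doublets and had aligned libraries before clustering. The counts were taken as deposited, for annotated cells and the 30406 genes shared by all libraries.

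UMIs were summed per library and cluster of at least 30 cells and given as CPM with exact Poisson 95% intervals. A count of 0 allows up to 3 counts. Shares of cells rest on cells thinned to 1000 UMIs (500 and no thinning as alternatives). Intervals cover counting error only, and the depth of 6591898 to 20754181 UMIs per library limits low genes. No doublet caller was run again.

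Tests used edgeR 4.0.16 in R 4.3.3 (filterByExpr, TMM factors, quasi-likelihood F-test, robust) with 3 residual degrees of freedom, or DESeq2 1.42.0 as an alternative; other scaling, no filter, other clusters, thinned cells and libraries left out were also tried. The fit assumes that groups of 1 library vary like the others. SE is the log2 fold change divided by the root of F. The scripts were tested on simulated data. Likeness is the Pearson correlation of log2(CPM + 10). Levels of different genes are not compared with each other.

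Named were the 9 members, the 5 genes most like them, and up to 3 called genes of each list with the largest fold change in each direction. Ppbp, Tmem119 and P2ry12, and the values of the microglia clusters, SAMC, Granulo_1 and Granulo_2, were named after the values were seen. The members and gene lists were chosen with earlier results of these data known.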

Additional observations from a re-analysis of the deposited data

Results flagged for a closer look

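The brain library at 72 h after MCAO was not part of the tests. In the macrophage clusters summed, Pf4, F13a1, Stab1 and Cbr2 stood above control brain in it by more than counting error. The share of all genes that did so was not counted, so this is no result about the members as a set. Pf4 was at 189.7 CPM against 51.4 CPM in control brain (3.69 times, 95% counting interval 2.62 to 5.36), and F13a1 at 152.4 CPM against 28.7 CPM (5.30 times, 3.37 to 8.86). Stab1 was at 235.2 CPM against 78.6 CPM (2.99 times, 2.27 to 4.03). Cbr2 was at 34.35 CPM against 1.51 CPM, the latter from 1 UMI (22.7 times, 4.02 to 902.7). Lyve1 and Cd209f had 1 UMI each at 72 h. In Macro_2 alone the direction was the opposite, with Pf4 at 0.0887 times control brain (0.0528 to 0.154), F13a1 at 0.157 (0.0871 to 0.302), Mrc1 at 0.184 (0.101 to 0.362) and Cd163, from 2 UMIs on each side, at 0.0332 (0.00241 to 0.459). From control to 72 h Macro_2 went from 35 to 570 cells and CAM_2 from 171 to 642. The 72 h library and replicate 2 at 24 h carry another set of cell barcodes than control brain, so this and the time after MCAO cannot be told apart here. In replicate 1 at 24 h, with the barcode set of the control, Pf4 was at 5.97 and F13a1 at 9.64 CPM.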

How the results depend on the processing

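No paired analysis was run, because the labels do not say which libraries came from the same mice. Any pairing of tissues by animal was therefore not taken into account. Of the members' fold changes under the alternatives, 486 kept direction and side of the threshold, 72 became called, 25 lost the call and 65 reversed, all 65 in pia against dura (29) and 24 h against control (36). Neither comparison with brain reversed for any member. The cause of the changes was not tested.

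The 66 genes called in pia against brain (54 higher, 12 lower) and 127 in dura (98 and 29) became 511 and 722 with DESeq2, 10 and 48 with library size alone (5 higher and 5 lower in pia, 29 and 19 in dura), 747 and 938 without the filter, 239 and 355 in CAM_1 and CAM_2, 0 and 39 in Macro_2, and 147 and 214 in cells thinned to 1000 UMIs. Library size alone moved the median of all genes to −0.55 and −0.60. In pia against dura the 0 became 14 with DESeq2, 59 without the filter, 11 in Macro_2, 285 in pia and dura only and 180 in CAM_1 and CAM_2 of these. At 24 h the 0 became 16, 73 without the filter, 225 and 233 in those last fits. The pia and dura only fits and the CAM fit without replicate 2 were added after seeing the data. With 1 library left out, calls ranged from 0 to 1941 (pia against brain), 0 to 2352 (dura against brain), 0 to 79 (pia against dura) and 0 to 136 (24 h), the highest each time without replicate 2 of brain at 24 h. In CAM_1 and CAM_2 without it they were 1858, 2107, 78 and 363. The tissue-by-time test stayed at 0 and could not be estimated with a library left out.

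At 24 h, log2 fold changes turned in Macro_2 for Lyve1 (−1.59), Mrc1 (−0.891), Cd163 (−0.650), Cbr2 (−0.931) and F13a1 (−0.121). They turned in pia and dura only for Lyve1 (−0.000), Mrc1 (−0.467), Cd163 (−0.008) and Cbr2 (−0.174), and in the CAM clusters of these for Lyve1 (−0.263), Mrc1 (−0.648), Cd163 (−0.192) and Cbr2 (−0.298). In the CAM fit without replicate 2 they were −0.249, −0.769, −0.170 and −0.253. Pf4 turned in CAM_1 and CAM_2 (0.072), Lyve1 in thinned cells (−0.103), and Stab1 with library size alone (0.065) and with SAMC (0.029). In pia against dura they turned in Macro_2 for Mrc1 (−0.306), Cd163 (−0.384), Folr2 (−0.795), Cd209f (−2.396) and Stab1 (−0.319). Cd209f, at 0.001, turned with DESeq2 (−0.020), its size factors (−0.022), SAMC (−0.018), CAM_1 and CAM_2 (−0.105), the 72 h library (−0.002), thinned cells (−0.218), pia and dura only (−0.014), the CAM clusters of these (−0.099) and CAM without replicate 2 (−0.116). Stab1 turned in CAM_1 and CAM_2 (−0.006), those of pia and dura only (−0.083) and CAM without replicate 2 (−0.072).

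With 1 library left out, 24 h values ran from −0.176 to 0.739 (Cbr2), −0.067 to 0.515 (Cd163), −0.023 to 1.072 (F13a1), −0.016 to 0.603 (Lyve1), −0.802 to 0.645 (Mrc1), −0.969 to 0.038 (Pf4) and −0.629 to 0.407 (Stab1). In pia against dura they ran from −0.603 to 0.465 (Cbr2), −0.282 to 0.281 (Cd209f), −0.193 to 1.038 (Mrc1), −0.382 to 0.121 (Pf4) and −0.630 to 0.634 (Stab1). Of the levels, 149 moved by more than their counting interval and 139 did not, and of the cell shares 98 and 46.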
